A study of Mus musculus with 6 samples.

Results

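The epidermal growth factor (EGF) family ligands and their ErbB receptors were examined in the established cell line 4T1, a mouse mammary carcinoma line of the BALB/c strain. The set holds 9 of the 54146 genes counted: the 6 ligand genes Areg, Ereg, Hbegf, Tgfa, Epgn and Btc, and the 3 receptor genes Egfr, Erbb2 and Erbb3. They were chosen by name, for their place in this pathway, with earlier results of these data known. Of the 9, 8 had enough reads to be among the 13755 genes tested, and Ereg was not tested. The groups were wild-type (WT) cells and 2 clones of genotype Mki67-/-, called Ki-67-KO clone 1 and Ki-67-KO clone 2, with 2 libraries each. The labels give no treatment, and all groups were grown in DMEM with foetal bovine serum, which itself contains growth factors. Each knockout line is 1 clone, so an effect of the knockout and a difference between clones cannot be told apart within a single clone. Both clones were compared with the same WT libraries, and the 2 comparisons are therefore not independent.

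EGF family ligands are made as membrane-anchored precursors that proteases of the ADAM family cut from the cell surface. The released ligand binds a receptor on the same or a neighbouring cell, and the receptors pair and phosphorylate each other. ErbB2 binds no ligand and acts as a partner, while ErbB3 binds neuregulins and has little kinase activity of its own. The receptors feed the RAS-ERK and PI3K-AKT cascades. In the mammary gland amphiregulin is the ligand of EGFR known for duct growth downstream of the estrogen receptor.

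Reads assigned to genes came to between 10428970 and 22658499 per library. Levels are CPM, gene counts divided by the scaled library size, and changes are log2 fold changes with their standard error (SE) from edgeR's quasi-likelihood test. A gene was called when its Benjamini-Hochberg adjusted p over all tested genes was under 0.05. The targeted gene Mki67 stood at 736 and 647 CPM in WT, 85.8 and 103 CPM in clone 1, and 39.9 and 52.8 CPM in clone 2. Of the 10 epithelial markers 9 were tested, and Krt5 had no read. The summed level of the epithelial list was 3560 to 4042 CPM in WT, 5645 to 5664 CPM in clone 1 and 5661 to 6088 CPM in clone 2. Its members did not move together. Epcam, Krt18, Krt7 and Cldn7 were called higher in both clones, and Krt14 and Cldn3 in clone 2 only. Krt8 and Krt19 were called in neither clone, and Cdh1 was called lower in clone 2 (log2 change -0.35) and not called in clone 1. Of 16 markers of leukocytes, fibroblasts and endothelial cells only 2 passed the count filter. The summed level of the leukocyte list was 0.986 to 1.30 CPM in WT, 2.16 to 2.42 CPM in clone 1 and 3.12 to 3.32 CPM in clone 2. The fibroblast list, nearly all of it Pdgfra, was at 39.4 to 39.6 CPM in WT, 14.5 to 14.6 CPM in clone 1 and 14.6 to 14.7 CPM in clone 2. The endothelial list was at 0.235 to 0.360 CPM over all libraries. The part of these shifts in the results below was not tested, and fewer cells of a type cannot be told apart from less RNA per cell.

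Promoter sequences were read from RefSeq for Areg, Tgfa, Epgn and Btc, because these ligands behaved differently although Areg, Epgn and Btc are neighbours on chromosome 5. Each window covers up to 250 bases before the RefSeq start on GRCm38.p6, on the gene's own strand, and stops short of any annotated exon. The letters in capitals mark matches to 1 of 5 motifs searched on both strands: a TATA box (TATAAA), an AP-1 element (TGANTCA), a cAMP response element or CRE (TGACGTCA), an E-box (CACGTG) and a GC box (GGGCGG).
Areg, chr5:91139349-91139598, plus strand: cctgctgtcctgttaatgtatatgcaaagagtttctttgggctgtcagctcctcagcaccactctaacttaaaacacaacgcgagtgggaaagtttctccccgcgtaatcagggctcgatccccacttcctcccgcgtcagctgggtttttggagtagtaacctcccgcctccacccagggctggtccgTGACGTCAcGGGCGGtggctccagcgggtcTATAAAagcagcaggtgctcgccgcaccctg
Tgfa, chr6:86194972-86195221, plus strand: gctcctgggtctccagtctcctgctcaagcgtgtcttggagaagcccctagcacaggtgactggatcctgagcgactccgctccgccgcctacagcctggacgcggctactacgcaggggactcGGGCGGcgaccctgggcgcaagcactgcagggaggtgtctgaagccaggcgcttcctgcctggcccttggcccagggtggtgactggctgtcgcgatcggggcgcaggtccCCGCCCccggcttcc
Epgn, chr5:91027267-91027463, plus strand: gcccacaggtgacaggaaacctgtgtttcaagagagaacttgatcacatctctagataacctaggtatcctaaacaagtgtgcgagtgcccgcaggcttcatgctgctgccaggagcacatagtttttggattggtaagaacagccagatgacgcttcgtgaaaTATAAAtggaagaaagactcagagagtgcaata
Btc, chr5:91402995-91403244, minus strand: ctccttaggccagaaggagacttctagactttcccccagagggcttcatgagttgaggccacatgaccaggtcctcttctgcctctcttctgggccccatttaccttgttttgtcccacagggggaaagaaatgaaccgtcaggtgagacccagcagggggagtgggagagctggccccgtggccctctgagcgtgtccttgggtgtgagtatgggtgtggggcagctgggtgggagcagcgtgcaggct

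The Areg window held a CRE that began 61 bases before the start, a GC box at 52 bases and a TATA box at 31 bases, and none of the 3 matches overlapped another. Among 32851 RefSeq promoter windows of the same length, 1.55% held the CRE, 32.7% the GC box and 12.4% the TATA box. The Tgfa window held 2 GC boxes, at 126 bases and, on the other strand, at 15 bases, and no TATA box. The Epgn window of 197 bases held a TATA box that began 86 bases before the RefSeq start (chr5:91027517). That window ended at the annotated gene start (chr5:91027464), which lies upstream of the RefSeq start, so the box was closer to the annotated start. The motif was found in 9.05% of promoter windows cut to the 197 bases farthest from their RefSeq start. This share leaves out the bases next to those starts. None of the 5 motifs lay in the Btc window. The Egfr window held a GC box 9 bases before the start, and the Erbb2 window held none of the motifs. Windows for Ereg, Hbegf and Erbb3 were not used here. These matches are descriptions of the sequence and do not show that a factor binds. The windows printed were picked after the changes were seen, and a link between a motif and a change was not tested.

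Among the ligands, Areg, Hbegf and Tgfa were higher in both knockout clones, Epgn was lower in both, and Btc was called in neither. Among the receptors, Egfr and Erbb3 were lower in clone 2 and were not called in clone 1, and Erbb2 was not called in either. Of the 8 tested members, 3 rose and 1 fell in clone 1, where 24.5% of all tested genes were called higher and 26.0% lower. In clone 2, 3 members rose and 3 fell, beside 25.2% and 27.9% of all tested genes. With 8 members these counts lie close to the background, so the number of calls is no result about the family. The sizes of the changes and their direction by role are described below.

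**Figure D1:**
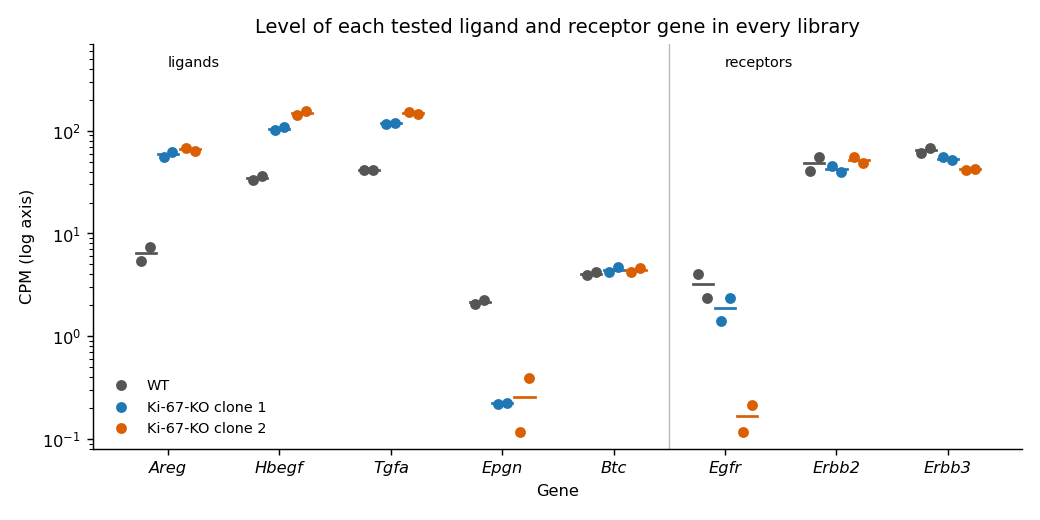
Level of each tested ligand and receptor gene in CPM on a log axis. Points are single libraries, 2 per group, and short lines are group means. Areg, Hbegf and Tgfa lie higher in all 4 knockout libraries than in both WT libraries, Epgn lies lower, and Egfr is lowest in clone 2.

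Areg encodes amphiregulin, a ligand that binds EGFR alone (chr5:91139599-91148432, plus strand, GRCm38). The WT libraries held 55 and 126 reads of it, those of clone 1 held 1265 and 1378, and those of clone 2 held 1164 and 1475. These reads correspond to 5.42 and 7.44 CPM in WT, 55.8 and 62.0 CPM in clone 1, and 68.5 and 63.7 CPM in clone 2. The knockout libraries lay far above both WT libraries, with no overlap, and the clones lay close together. The log2 fold change was 3.17 ± 0.16 (SE) in clone 1 (9.01-fold, adjusted p = 6.5e-09) and 3.34 ± 0.16 in clone 2 (10.1-fold, adjusted p = 4e-09). Areg did not differ detectably between the clones, with a log2 difference of 0.17 ± 0.14 (SE) and an adjusted p of 0.40 by edgeR. The 55 and 126 WT reads are the lowest counts in this comparison and limit its precision most.

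Hbegf encodes heparin-binding EGF-like growth factor, which binds EGFR and ErbB4 (chromosome 18, 36504927 to 36515805, minus strand). Its level was 33.4 and 36.0 CPM in WT, 101 and 108 CPM in clone 1, and 143 and 157 CPM in clone 2. The 3 groups did not overlap, and WT was the lowest and clone 2 the highest. The log2 fold change against WT was 1.59 ± 0.12 (SE) in clone 1 (3.01-fold, adjusted p = 2.1e-07 by edgeR) and 2.11 ± 0.12 in clone 2 (4.31-fold, adjusted p = 1.8e-08). Clone 2 exceeded clone 1 by 0.52 ± 0.11 (SE) on the log2 scale (adjusted p = 0.0064 by edgeR). That difference was no longer called without clone 1 replicate 1 (0.47, adjusted p = 0.11), clone 1 replicate 2 (0.57, adjusted p = 0.058) or clone 2 replicate 2 (0.44, adjusted p = 0.055).

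Tgfa encodes transforming growth factor alpha, an EGFR ligand (chr6:86195223-86275719, plus strand). It stood at 41.4 and 41.8 CPM in WT, 116 and 120 CPM in clone 1, and 151 and 146 CPM in clone 2. The order of the groups was that seen for Hbegf, with no overlap. The log2 fold change against WT was 1.5 ± 0.11 (SE) in clone 1 (2.83-fold, adjusted p = 2.1e-07 by edgeR) and 1.84 ± 0.11 in clone 2 (3.58-fold, adjusted p = 3.2e-08). The clones differed by 0.34 ± 0.11 (SE, adjusted p = 0.039 by edgeR), a call that was lost when any 1 of the 4 clone libraries was left out (adjusted p 0.084 to 0.30). With the replicate number as a block the adjusted p of this difference was 0.077.

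Epgn encodes epigen, a ligand of EGFR with low affinity (chr5:91027464-91035215, plus strand). WT held 21 and 38 reads of it, clone 1 held 5 and 5, and clone 2 held 2 and 9. Its level was 2.07 and 2.24 CPM in WT, 0.220 and 0.225 CPM in clone 1, and 0.118 and 0.389 CPM in clone 2. All 4 knockout libraries lay below WT, so Epgn moved against Areg, Hbegf and Tgfa. The log2 fold change was -3.25 ± 0.44 (SE) in clone 1 (adjusted p = 4.7e-05 by edgeR) and -2.97 ± 0.43 in clone 2 (adjusted p = 7.7e-05). These are 9.50-fold and 7.82-fold lower levels, on few reads. Without clone 2 replicate 2 the change in clone 2 was -4.14 on the log2 scale. The smallest change in clone 2 with 1 library left out was -2.455. The clones overlapped each other, with a log2 difference of 0.28 ± 0.62 (SE) and an adjusted p of 0.78 by edgeR.

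Btc encodes betacellulin, a ligand of EGFR and ErbB4 (chr5:91357261-91402994, minus strand). Its level was 3.94 and 4.19 CPM in WT, 4.19 and 4.68 CPM in clone 1, and 4.18 and 4.62 CPM in clone 2. The groups overlapped, with log2 changes of 0.12 ± 0.20 (SE) in clone 1 (adjusted p = 0.65 by edgeR) and 0.11 ± 0.20 in clone 2 (adjusted p = 0.67). Ereg, the gene of epiregulin between Epgn and Areg (chr5:91074622-91093646, plus strand), had 1 read in all 6 libraries, in clone 2 replicate 1. A count of 0 allows a level of up to 3 counts, which is 0.130 to 0.296 CPM depending on the library and covers counting error only.

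**Figure D2:**
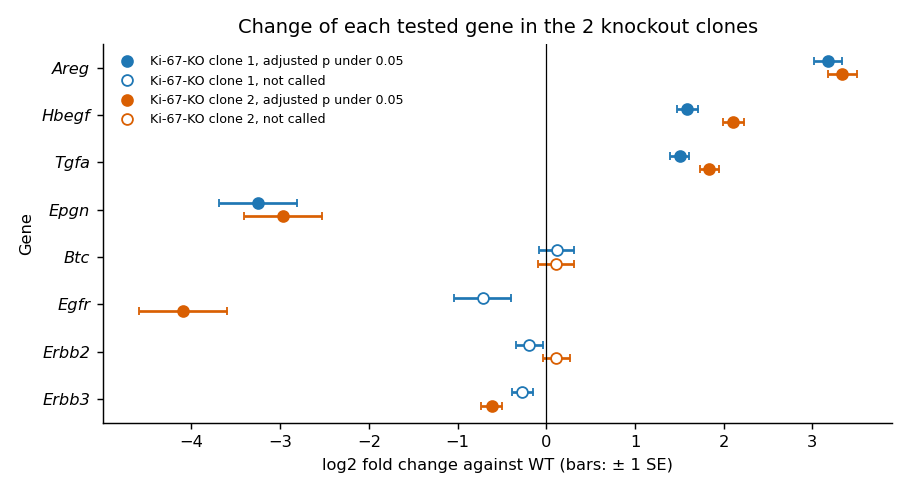
log2 fold change of each tested gene against WT in clone 1 and clone 2. Bars are 1 SE and filled points have an adjusted p under 0.05. Areg changed most among the genes that rose, at 3.17 and 3.34, and Egfr was at -4.10 in clone 2 and at -0.72, not called, in clone 1.

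Egfr, the receptor for Areg, Tgfa and Epgn (chr11:16752203-16918158, plus strand), was weakly expressed in every library. The WT libraries held 41 and 40 reads of it, those of clone 1 held 32 and 52, and those of clone 2 held 2 and 5. The corresponding levels were 4.04 and 2.36 CPM in WT, 1.41 and 2.34 CPM in clone 1, and 0.118 and 0.216 CPM in clone 2. Clone 2 lay far below both other groups, while clone 1 replicate 2 came close to WT replicate 2. Egfr fell by 4.10 ± 0.50 (SE) on the log2 scale in clone 2 (17.1-fold, adjusted p = 1.5e-05 by edgeR). In clone 1 the log2 change was -0.72 ± 0.33 (SE, adjusted p = 0.082 by edgeR). It was called without WT replicate 2 (-1.11, adjusted p = 0.020) and without clone 1 replicate 2 (-1.13, adjusted p = 0.036). The difference between the clones was itself called, at -3.38 ± 0.51 (SE, adjusted p = 0.00074 by edgeR).

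Erbb2, the partner receptor without a ligand (chr11:98412470-98437716, plus strand), was at 40.6 and 55.7 CPM in WT, 45.2 and 39.4 CPM in clone 1, and 55.7 and 49.0 CPM in clone 2. WT replicates differed more than the group means did, and both clones overlapped WT. The log2 changes were -0.19 ± 0.15 (SE) in clone 1 (adjusted p = 0.31 by edgeR) and 0.11 ± 0.15 in clone 2 (adjusted p = 0.55). These calls depended on single WT libraries: without WT replicate 1 the change in clone 1 was -0.39 (adjusted p = 0.027), and without WT replicate 2 that in clone 2 was 0.37 (adjusted p = 0.044). The clones differed by 0.31 ± 0.15 (SE, adjusted p = 0.16 by edgeR). That difference was called without WT replicate 1 (adjusted p = 0.048) and without WT replicate 2 (adjusted p = 0.047).

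Erbb3, the receptor for neuregulins (chr10:128567523-128589652, minus strand), was at 61.2 and 67.9 CPM in WT, 55.4 and 51.6 CPM in clone 1, and 41.7 and 42.7 CPM in clone 2. The groups did not overlap and descended from WT to clone 2. The log2 change was -0.61 ± 0.12 (SE) in clone 2 (adjusted p = 0.00064 by edgeR) and -0.27 ± 0.12 in clone 1 (adjusted p = 0.068). In clone 1 it was called without WT replicate 1 (-0.34, adjusted p = 0.032) and with upper-quartile scaling (-0.33, adjusted p = 0.030). Between the clones the difference of -0.34 ± 0.12 (SE, adjusted p = 0.0495 by edgeR) lay at the threshold and was lost when any 1 clone library was left out (adjusted p 0.11 to 0.32). With a replicate block its adjusted p was 0.086.

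Some chromosomes had median changes away from 0, of a size like that of the smaller receptor changes. The median log2 change over the tested genes of chromosome 10, which carries Erbb3, was -0.42 in clone 1 and -0.36 in clone 2. On chromosome 11, which carries Egfr and Erbb2, it was -0.24 and -0.14, and over all tested genes it was -0.01 and -0.02. With the chromosome medians removed, Erbb3 was at -0.25 in clone 2 and no longer called (adjusted p = 0.087). The medians of chromosome 5 (-0.17 in both clones) and chromosome 6 (0.21 and 0.22) were small beside the changes of Areg, Epgn and Tgfa.

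Between the clones, 2 members were higher in clone 2 (Hbegf and Tgfa) and 2 were lower (Egfr and Erbb3), where 11.3% of all tested genes were called higher and 10.7% lower. Without 1 clone library the number of members called fell from 4 to 1, except without clone 2 replicate 1, where it was 2. Egfr was the member with the widest gap between the clones.

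Levels of different genes can be set side by side only per length, and per kilobase of exon the ligand makeup changed. Some orders depend on the length chosen, as given below. Levels are given here as RPKM, CPM divided by the length of all annotated exons of the gene in kilobases. In WT the order was Hbegf (6.92 and 7.44 RPKM), Tgfa (6.38 and 6.43 RPKM), Areg (4.46 and 6.12 RPKM), Epgn (1.15 and 1.24 RPKM) and Btc (0.873 and 0.928 RPKM). In WT replicate 2, Tgfa and Areg differed by less than the WT libraries of Areg did. In clone 1 Areg led with 45.9 and 51.0 RPKM, before Hbegf (20.9 and 22.3 RPKM) and Tgfa (17.8 and 18.5 RPKM). In clone 2 the order was the same, with Areg at 56.4 and 52.4 RPKM, Hbegf at 29.5 and 32.4 RPKM and Tgfa at 23.3 and 22.5 RPKM. Epgn was at 0.0652 to 0.215 RPKM in the knockout libraries, below Btc in each. In WT the order of Epgn and Btc depends on the length used: with the longest coding transcript Epgn was at 1.18 and 1.28 RPKM, below Btc at 1.37 and 1.46 RPKM.

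The 6 ligands summed to 19.8 and 22.2 RPKM in WT, 85.7 and 92.9 RPKM in clone 1, and 110 and 109 RPKM in clone 2. Areg made up 22.6% and 27.6% of the sum in the WT libraries, 53.6% and 54.9% of it in clone 1, and 51.2% and 48.3% of it in clone 2. These shares depend on the gene length used, since the annotated exons of Hbegf span 4834 bases and its longest coding transcript 2375. With the longest coding transcript, a choice made after the data were seen, the mean share of Areg was 16.6% in WT, 40.3% in clone 1 and 35.8% in clone 2. The share of Hbegf was then 46.1%, 36.6% and 41.5%, so in clone 2 Hbegf ranked above Areg. Areg held a larger share in the clones than in WT under both lengths.

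**Figure D3:**
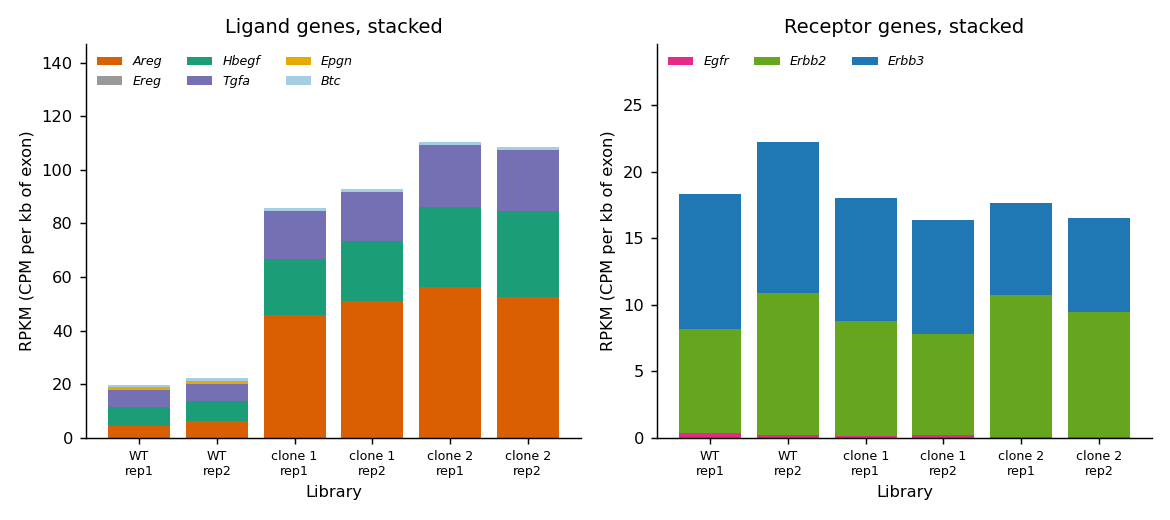
Stacked levels per kilobase of exon (RPKM) of the 6 ligands (left) and the 3 receptors (right) in each library. The ligand bars grow from 19.8 and 22.2 in WT to between 85.7 and 110 in the clones, while the receptor bars stay between 16.3 and 22.2.

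The 3 receptors summed to 18.3 and 22.2 RPKM in WT, 18.0 and 16.3 RPKM in clone 1, and 17.6 and 16.5 RPKM in clone 2. Erbb2 and Erbb3 made up nearly all of it, and Egfr was 1.95% and 0.940% of the sum in WT and 0.0590% and 0.115% in clone 2. Erbb3 held 55.5% and 50.9% of the receptor sum in WT and 39.3% and 42.9% in clone 2, where Erbb2 was the leading receptor.

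Areg, Ereg, Epgn and Btc lie together on chromosome 5, within 375.5 kb (chr5:91027464-91402994). Inside this span and 500 kb to each side there were 34 annotated genes, of which 11 were tested and 8 were not members. Of these 8 neighbours, 3 rose and 3 fell in clone 1, and 4 rose and 1 fell in clone 2. Over all tested genes 24.5% rose and 26.0% fell in clone 1, and 25.2% and 27.9% in clone 2, so 8 genes give no count that stands apart. The neighbours on the Epgn side include chemokine genes that attract neutrophils. Cxcl5 was at 29.6 and 36.3 CPM in WT, 28.3 and 30.6 CPM in clone 1, and 230 and 234 CPM in clone 2. Cxcl1 was at 25.4 and 23.5 CPM in WT, 43.7 and 53.5 CPM in clone 1, and 318 and 268 CPM in clone 2. Both chemokines were higher in clone 2 than in clone 1, by 2.98 (Cxcl5) and 2.59 (Cxcl1) on the log2 scale, where Areg differed by 0.17 ± 0.14 (SE). Among the others, Rassf6 fell in both clones (log2 change -0.81 and -0.63), and Parm1, beyond Btc, fell in clone 1 (-2.41) and was at 0.04 in clone 2. The call for Cxcl2 in clone 1 (-2.14) was lost without WT replicate 2 (-1.36, adjusted p = 0.34), without clone 1 replicate 1 or 2 (adjusted p = 0.11 and 0.054) and with DESeq2 (adjusted p = 0.12). That for Mthfd2l in clone 1 was lost without WT replicate 2 or clone 1 replicate 2 (adjusted p = 0.068 and 0.098). In clone 2 it was lost without WT replicate 2 (adjusted p = 0.22), without either clone 2 library (adjusted p = 0.12 and 0.13) and with upper-quartile scaling (adjusted p = 0.070). Within the cluster itself, Epgn and Areg changed in opposite directions and Btc was not called.

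**Figure D4:**
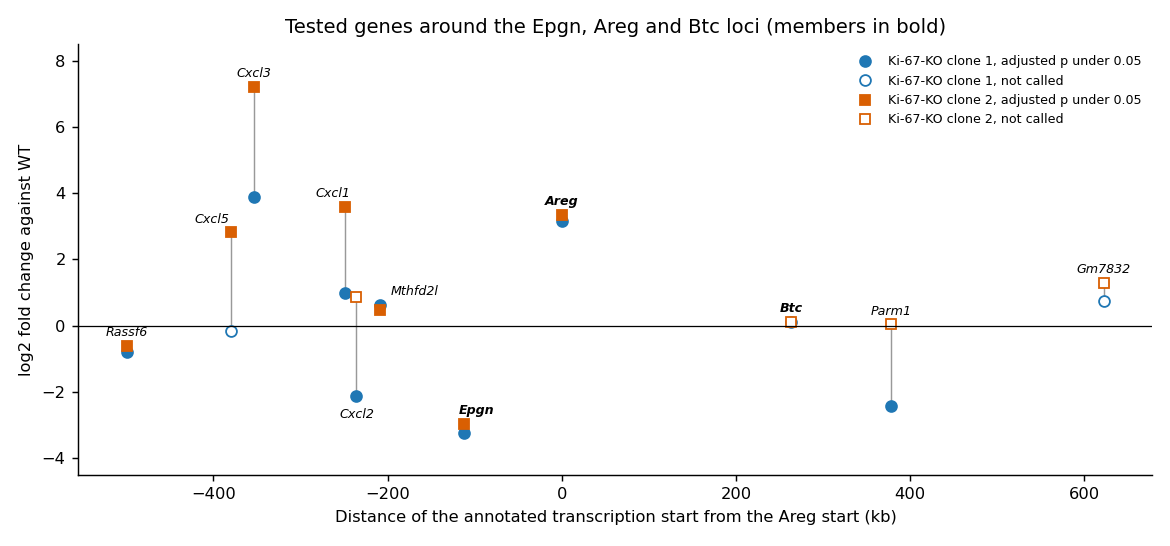
log2 fold change against WT of the 11 tested genes of the region, placed by the distance of their annotated start from that of Areg in kilobases. Circles are clone 1, squares clone 2, a grey line joins the 2 values of a gene, and filled symbols have an adjusted p under 0.05. Epgn (-3.25 and -2.97), Areg (3.17 and 3.34) and Btc (0.12 and 0.11) show no common change.

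Apart from Nrg1, the other members of the EGF family were at low levels, with Nrg2 at 1.48 to 3.17 CPM. Of Egf, the neuregulin genes Nrg1, Nrg2, Nrg3 and Nrg4, and Erbb4, 3 were tested and none was called in clone 1, and 1 of the 3 rose in clone 2. Nrg1, which encodes a ligand of ErbB3 and ErbB4, was at 7.79 and 7.68 CPM in WT, 6.61 and 7.01 CPM in clone 1, and 16.6 and 16.4 CPM in clone 2. Its level was raised in clone 2 alone among the 3 groups, with a log2 change of 1.09 (adjusted p = 5.2e-05 by edgeR) against -0.18 (adjusted p = 0.36) in clone 1, and a called difference of 1.27 between the clones. Erbb4 and Nrg3 had no read in any library. Egf itself stood at 0.450 to 1.00 CPM and was not called.

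The proteases and partners that release the ligands moved in both directions. Of 7 listed genes 6 were tested, and the median log2 change was 0.01 in clone 1 and -0.10 in clone 2. In clone 1 none rose and 1 fell, beside 24.5% and 26.0% of all tested genes. In clone 2, 2 rose and 2 fell, beside 25.2% and 27.9%, and with 6 genes these counts are no result about the list. Adam10, a sheddase of EGF and betacellulin precursors, was at 87.3 and 75.9 CPM in WT, 51.8 and 58.7 CPM in clone 1, and 48.5 and 51.3 CPM in clone 2. It fell in both clones, by 0.56 and 0.71 on the log2 scale. Rhbdf2, the inactive rhomboid that carries ADAM17 to the cell surface, rose by 0.66 in clone 2 (adjusted p = 0.0021 by edgeR). Adam17, the main sheddase of Areg, Hbegf and Tgfa, was named after its values were seen, and its log2 change was 0.07 in clone 1 and -0.06 in clone 2. The calls for Rhbdf1 (0.45) and Rhbdl2 (-0.59) in clone 2 were lost without clone 2 replicate 1 (0.44, adjusted p = 0.16 and -0.34, adjusted p = 0.20), which left 2 calls of 4. The Rhbdf1 call was also lost without WT replicate 1 (0.18, adjusted p = 0.21) or clone 2 replicate 2 (0.46, adjusted p = 0.13), and the Rhbdl2 call without WT replicate 2 (-0.51, adjusted p = 0.095). Without WT replicate 2 the number of calls in clone 1 was 3 in place of 1, and without either clone 2 library it was 2. Sheddase activity was not measured.

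The list of receptor attenuators held 13 genes for the restraint, traffic or turnover of the receptors, all tested, and not all of them are inhibitors. Of these, 6 rose and 1 fell in clone 1 (24.5% and 26.0% of all tested genes). In clone 2, 4 rose and 2 fell (25.2% and 27.9%). Higher in both clones were 4, for which no share over all tested genes was counted. In clone 2 the counts lie near or below the shares over all tested genes. Their median log2 change was 0.07 in each clone. Lrig1, a membrane protein that promotes receptor degradation, was at 143 and 172 CPM in WT, 216 and 211 CPM in clone 1, and 389 and 383 CPM in clone 2. Its log2 change was 0.44 in clone 1 and 1.29 in clone 2. Errfi1, whose product MIG6 binds and inhibits the EGFR kinase, changed by 0.46 and 1.14. Ptpn1, a tyrosine phosphatase, rose by 0.69 and 0.92, and Lrig3 fell by 0.75 in clone 1. With the chromosome medians removed, the clone 1 calls of Lrig1, Errfi1 and Lrig3 were lost. Their log2 changes were then 0.23, 0.30 and -0.33 (adjusted p = 0.13, 0.083 and 0.11 by edgeR). Without clone 1 replicate 1 the calls in clone 1 numbered 4 in place of 7 and Lrig1 was not called (0.42, adjusted p = 0.065), and without clone 1 replicate 2 Errfi1 was not called (0.27, adjusted p = 0.24).

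Of 28 adaptors and kinases downstream of the receptors, all tested, 9 rose and 7 fell in each clone, with 6 higher and 4 lower in both. The counts for each clone lie close to the shares over all tested genes (24.5% higher and 26.0% lower in clone 1, 25.2% and 27.9% in clone 2). They are no result about the cascade. The share of all tested genes called in both clones was not counted, so the counts in both are no result either. The median log2 change was -0.05 in clone 1 and 0.11 in clone 2. Src, a kinase that works with EGFR, was at 92.7 and 107 CPM in WT, 208 and 190 CPM in clone 1, and 331 and 318 CPM in clone 2. It rose by 0.99 and 1.70 on the log2 scale. The docking adaptors went separate ways: Gab1 fell by 1.27 in clone 1 and 1.16 in clone 2, and Gab2 rose by 1.19 and 0.88. Pik3r1, the regulatory subunit of PI3K, fell by 1.02 and 1.24.

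Genes known to respond to ERK activity, among them feedback inhibitors of the pathway, were higher in both clones. Of 16 genes, all tested, 15 rose in clone 1 and 14 in clone 2, none fell in either, and 14 were higher in both. The share of all tested genes higher in both clones was not counted, and both clones were compared with the same WT libraries. Over all tested genes 24.5% rose and 26.0% fell in clone 1, and 25.2% and 27.9% in clone 2. The median log2 change of the 16 was 1.57 in clone 1 and 1.60 in clone 2, beside -0.01 and -0.02 over all tested genes. Ier3, an immediate early gene, was at 46.3 and 45.0 CPM in WT, 223 and 232 CPM in clone 1, and 387 and 331 CPM in clone 2. Its log2 change was 2.32 in clone 1 and 2.98 in clone 2. Fosl1, which encodes the AP-1 subunit FRA-1, rose by 2.25 and 2.77. The ERK phosphatase gene Dusp5 rose by 1.88 and 2.69, and Spry4, a feedback inhibitor of receptor tyrosine kinase signalling, rose by 1.88 and 2.44. Spred2 and Dusp4, named after their values were seen, had the smallest changes in clone 2. Spred2 was called in neither clone, and Dusp4 was at 0.37 (called) in clone 1 and 0.29 (not called) in clone 2. The list was chosen with earlier results of these data known and is no independent evidence of pathway activity, and ERK phosphorylation was not measured.

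**Figure D5:**
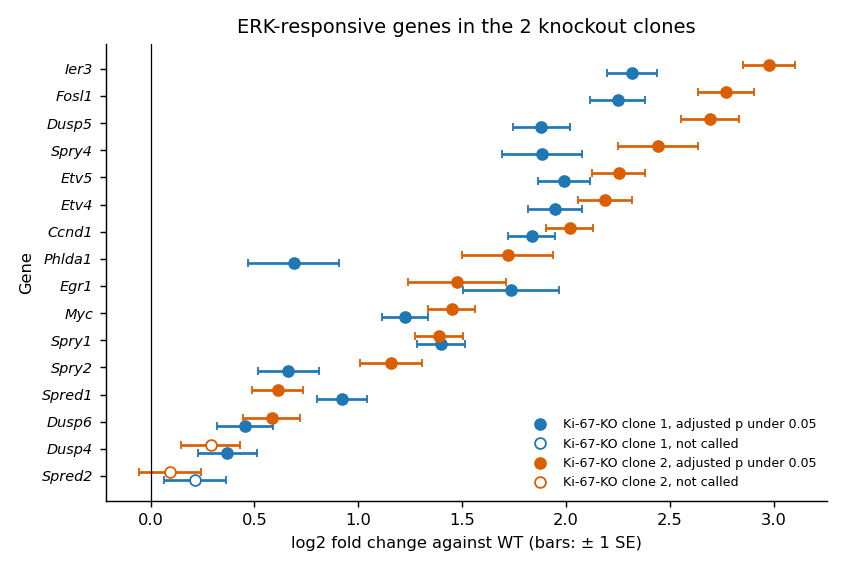
log2 fold change against WT of 16 ERK-responsive genes in both clones, with bars of 1 SE and filled points for an adjusted p under 0.05. All 16 lie above 0, from 0.09 for Spred2 to 2.98 for Ier3 in clone 2.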

How the data were processed

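Per the labels' protocols, total RNA of 4T1 cells was depleted of ribosomal RNA and sequenced as stranded libraries. Per the submitters' processing notes, FastQC, STAR 2.6.0c and GRCm38 were used. The deposited values are the authors' read counts per gene, not normalized, 1 table per library. Reverse-strand counts (column 4) were taken, since 92.3% to 95.7% of stranded gene reads were there. Unassigned reads, 46.9% to 56.8% of the total, were left out. No library was a copy of its replicate. The chi-square divided by its degrees of freedom was 78.8 for WT, 17.7 for clone 1 and 25.0 for clone 2. The WT pair thus scattered most, while the fit shared 1 estimate of the spread over all groups. Standard errors may therefore be too small against WT and too large between the clones, which was not tested. The labels do not say whether replicates were separate cultures, so p-values measure only the spread between libraries, which may be technical.

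From these counts, edgeR 4.0.16 in R 4.3.3 was run with filterByExpr, TMM scaling and a robust quasi-likelihood fit with 1 term per group to all 6 libraries (3 residual degrees of freedom, common biological coefficient of variation 10.3%). The fit was tested on simulated data. GENCODE mouse release 21 (GRCm38) gave symbols, positions and exon lengths for 54079 of 54146 genes. Alternatives were other scalings, filters and tools (DESeq2 1.42.0, limma 3.58.1), unstranded counts, a minimum change of 1.5-fold, only the groups compared, a replicate block, chromosome medians removed, and each library left out (the spread of a lone library is then taken from the other groups). Named were all 9 members, from each of 5 lists up to 4 genes with the largest change in either clone, the tested genes within 500 kb of the chromosome 5 cluster, and for each member the 3 protein-coding genes with the nearest profile. The members and lists were chosen with earlier results of these data known.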

Additional observations from a re-analysis of the deposited data

Results flagged for a closer look

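The clones differed from each other by the test of that difference (log2 of clone 2 over clone 1, edgeR) for several genes named above. Among the members these were Hbegf (0.52), Tgfa (0.34), Egfr (-3.38) and Erbb3 (-0.34). Among the related genes named above, Nrg1 (1.27), Lrig1 (0.85), Errfi1 (0.68), Lrig3 (0.57) and Src (0.70) were higher in clone 2. Other genes of the same lists were called lower there: Sos1 (-0.88), Eps15 (-0.71), Nck1 (-0.57) and Socs5 (-0.46). In all, 3 attenuators were higher and 2 lower, and 4 genes of the cascade were higher and 2 lower. Over all tested genes 11.3% were higher and 10.7% lower. Of the 16 ERK-responsive genes 6 were higher and none lower, among them Ier3 (0.66), Fosl1 (0.52), Dusp5 (0.81) and Spry4 (0.56). The calls for Lrig3 and Spry4 were lost when any 1 clone library was left out (adjusted p 0.062 to 0.20 and 0.12 to 0.18). That for Fosl1 was lost without clone 1 replicate 1, clone 1 replicate 2 or clone 2 replicate 1 (adjusted p 0.13, 0.061 and 0.12), and that for Errfi1 without clone 1 replicate 1 or clone 2 replicate 1 (adjusted p 0.087 and 0.079).

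Wide gaps between the clones also lay in the chemokine cluster next to Epgn, where Cxcl5 (2.98), Cxcl3 (3.31), Cxcl1 (2.59) and Cxcl2 (2.99) were all higher in clone 2. Cxcl3 had no read in WT replicate 1 and 0.118 CPM in WT replicate 2, against 1.15 and 1.21 CPM in clone 1 and 13.6 and 9.93 CPM in clone 2. Cxcl2 stayed at 0.0882 to 1.18 CPM, and its difference was not called without clone 2 replicate 1 (2.66, adjusted p = 0.068). Parm1 was higher in clone 2 by 2.45, at 0.132 to 1.25 CPM over all libraries, and was not called without clone 1 replicate 1 (2.24, adjusted p = 0.076), clone 1 replicate 2 (2.67, adjusted p = 0.052) or clone 2 replicate 2 (1.35, adjusted p = 0.26).

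Reads on the strand opposite to the gene, which enter no comparison above, were counted over Areg in the 4 clone libraries. There were 59, a mean of 0.689 CPM and 1.11% of the stranded reads at the gene. In WT there were 0 among 181 stranded reads, which allows a share of up to 1.66%, so the share in WT cannot be told from that in the clones at this depth. Over Tgfa there were 2 opposite-strand reads in WT and 24 in the clones, a mean of 0.280 CPM, and their share was 0.177% in WT and 0.213% in the clones.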

How the results depend on the processing

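The calls for Areg, Hbegf, Tgfa and Epgn against WT, and for Egfr in clone 2, kept their direction and their side of the threshold under all 18 alternatives. The minimum change of 1.5-fold lowered the genes called to 2684 (clone 1), 3032 (clone 2) and 344 (clone 2 against clone 1) from 6939, 7303 and 3028. With 1 library left out the last was 625 to 4445. The members called between the clones were 4, and 2 without a count filter, 2 with the replicate block, 1 with the minimum change and 1 to 5 with 1 library left out. With the minimum change, the lists held these numbers of calls in clone 1 and clone 2: shedding 0 and 0, attenuators 0 and 3, cascade 4 and 4. In clone 1, shedding calls numbered 2 with upper-quartile scaling or only the groups compared, and with chromosome medians removed the calls were 4 for shedding, 2 for attenuators and 1 for the other EGF family genes. With 1 library left out they were 1 to 3 (shedding, clone 1), 2 to 4 (shedding, clone 2) and 4 to 8 (attenuators, clone 1). Changes that were not called reversed as follows. Removing the chromosome medians reversed Erbb2 (0.0518), Erbb3 (0.145) and Cxcl5 (0.0074) in clone 1, and Egf (0.0993) and Lrig3 (0.192) in clone 2. Btc between the clones reversed with RLE size factors (0.0064), unstranded counts (0.0095) and DESeq2 (0.0139), Parm1 in clone 2 with upper-quartile scaling (-0.0501), DESeq2 (-0.0422) and limma-voom (-0.151), and Adam17 in clone 2 without a count filter (0.0135). With 1 library left out, the ranges that crossed 0 were -0.890 to 0.794 (Epgn) and -0.0944 to 0.0746 (Btc) between the clones. In clone 1 they were -0.392 to 0.0585 (Erbb2), -0.0651 to 0.568 (Rhbdf1) and -0.0576 to 1.64 (Gm7832). In clone 2 they were -0.0817 to 0.370 (Erbb2), -0.243 to 0.100 (Egf), -0.218 to 0.0812 (Adam17) and -1.06 to 0.550 (Parm1). The cause of these shifts was not tested. The replicate numbers did not pair the libraries: deviations of same-numbered libraries correlated at -0.16 (WT and clone 1), 0.08 (WT and clone 2) and 0.00 (the clones). The replicate block changed no call of a member against WT. Depth limits Epgn, Egfr and Ereg most, with 80, 172 and 1 reads over all libraries.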

Other observations

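For each tested member the 3 tested protein-coding genes with the most similar profile were listed, by Euclidean distance between log2(CPM + 0.25) values centred on their mean over the 6 libraries, among 11427 protein-coding genes. These likenesses rest on 6 libraries in 3 groups and are descriptions. The genes nearest to Areg were Tmem51 (distance 0.0839), Dll4 (0.113), which encodes a Notch ligand, and Acoxl (0.278). Dll4 was at 2.56 and 3.31 CPM in WT, 26.6 and 29.9 CPM in clone 1, and 30.7 and 30.7 CPM in clone 2. Nearest to Hbegf were Efnb1 (0.199), the gene of ephrin-B1, Pcyt1b (0.199) and Itga2 (0.260), which encodes a collagen-binding integrin subunit. Nearest to Tgfa were Gcnt2 (0.164), Slc1a5 (0.177), a glutamine transporter gene, and Sipa1l2 (0.179). Epgn was nearest to Lynx1 (0.271), Zfp239 (0.296) and Ecscr (0.401), and Egfr to Plcl1 (0.782), Tmem74 (0.796) and Ifi202b (0.862). Epgn in the clones (0.118 to 0.389 CPM) and Egfr in clone 2 (0.118 and 0.216 CPM) lay near the added 0.25 CPM. Their distances therefore depend on that value. Acoxl in WT (0.0986 and 0.118 CPM) has the same limit. Ifi202b, an interferon-inducible gene, was at 46.9 and 39.2 CPM in WT, 16.2 and 18.3 CPM in clone 1, and 4.83 and 5.57 CPM in clone 2, so it also stood lower in clone 1. Erbb3 was nearest to Epb41l5 (0.0872), 4931406P16Rik (0.106) and Zkscan7 (0.110).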
